A study of Rattus norvegicus with 2 samples.

Results

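Cadherins and protocadherins were taken as every non-control probe of a rat gene expression array whose gene name begins with Cdh or Pcdh. The rule gave 85 probes for 76 gene names, out of 30367 probes on each array, which stand for 17579 genes with a RefSeq name or a member name. By name, 24 genes were cadherins, 11 were nonclustered protocadherins and 41 were clustered protocadherins. The RNA came from the paraventricular nucleus (PVN) of the hypothalamus, which governs hormone release and sympathetic outflow, in male Sprague Dawley rats aged 12 weeks. Control offspring had mothers that were given vehicle. The mothers of the dexamethasone group had received 200 µg/kg dexamethasone, a synthetic glucocorticoid, during the third trimester. Each group had 1 array, and the labels do not say whether its RNA came from 1 rat or from several pooled. No difference below therefore has a replicate check, a p-value or an error between animals. The arrays shared 1 slide, and the place on it and the group cannot be told apart.

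Cadherins are calcium-dependent adhesion proteins that join cells by binding partner molecules on the neighbouring surface. Classical cadherins hold catenins at their cytoplasmic tail, which tie them to actin, and in brain the mix of type I and type II members marks nuclei, layers and synapses. Nonclustered protocadherins carry the delta families, which recruit actin regulators and phosphatases. Clustered protocadherins come from adjoining alpha, beta and gamma gene arrays. Single neurons use different subsets of them, which gives the cells surface identities used in self-avoidance and synapse formation.

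Each probe is a DNA oligonucleotide of 60 bases. Positions are those of the array files on the rn4 rat assembly, and sequences are written 5′ to 3′ in the sense of the transcript. The first set shows the classical cadherin probes that hold a motif of the shared tail. The array has 5 type I and 12 type II probes, and most of these lack the motif. Capitals mark a match to TANGANTAC (N is any base), which lies in the coding sequence of the tail that classical cadherins share. It was found in 3 member probes as printed and in none of the members on the reverse strand. Over the array, 102 of 30356 probes held it on either strand (0.336%).
Cdh10, chr2:69695882-69695941, + strand: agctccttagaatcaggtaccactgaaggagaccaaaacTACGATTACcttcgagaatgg
Cdh7, chr13:17020715-17020774, + strand: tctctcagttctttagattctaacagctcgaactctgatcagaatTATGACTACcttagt
Cdh4, chr3:168979305-168979364, + strand: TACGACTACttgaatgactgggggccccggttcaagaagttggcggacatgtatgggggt

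The next set shows other probes of genes named below. It does not hold all genes with the largest differences: the probes of Pcdh20 and Pcdhb6 are not printed. None of the probes in this set held the tail motif. The Pcdh8 probe spans 452 bases of the genome for its 60 bases of sequence, so it crosses an intron.
Cdh9, chr2:66931289-66931348, + strand: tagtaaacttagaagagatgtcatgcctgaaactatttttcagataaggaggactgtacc
Cdh8, chr19:6013566-6013625, + strand: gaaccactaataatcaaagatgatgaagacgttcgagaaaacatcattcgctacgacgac
Pcdh8, chr15:61057353-61057804, - strand: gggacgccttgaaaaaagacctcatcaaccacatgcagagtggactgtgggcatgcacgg
Pcdh19, chrX:121109655-121109714, - strand: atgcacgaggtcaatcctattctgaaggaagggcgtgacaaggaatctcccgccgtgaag

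Clustered protocadherins are close copies of each other, and the following probes show a stretch that several of them share. Capitals mark matches to TTNAANTTCNTNAA, a stretch near the end of the beta reading frame. It was found in 6 member probes as printed, in no member on the reverse strand, and in 13 of 30356 probes of the array on either strand (0.0428%).
Pcdhb2, chr18:30107057-30107116, + strand: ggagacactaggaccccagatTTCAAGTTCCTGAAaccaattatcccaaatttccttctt
Pcdhb3, chr18:30112856-30112915, + strand: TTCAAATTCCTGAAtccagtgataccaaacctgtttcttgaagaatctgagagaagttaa
Pcdhb4, chr18:30119477-30119536, + strand: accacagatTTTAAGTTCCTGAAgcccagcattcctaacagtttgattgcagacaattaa
Pcdhb8, chr18:30172041-30172100, + strand: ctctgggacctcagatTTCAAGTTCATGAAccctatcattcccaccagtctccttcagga
Pcdhb15, chr18:30287749-30287808, + strand: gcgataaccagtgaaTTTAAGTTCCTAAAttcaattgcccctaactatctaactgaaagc
Pcdhb20, chr18:30318511-30318570, + strand: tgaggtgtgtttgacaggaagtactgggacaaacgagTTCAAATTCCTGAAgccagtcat

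A pair of gamma probes was aligned base by base. The probes of Pcdhga7 and Pcdhga8 read corresponding stretches of the 2 genes and were identical at 45 positions and different at 15, which are in capitals. Signal of a probe for a clustered member may hold some RNA of its nearest copies, and how much was not tested.
Pcdhga7, chr18:30626746-30626805, + strand: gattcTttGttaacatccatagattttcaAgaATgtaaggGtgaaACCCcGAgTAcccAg
Pcdhga8, chr18:30637535-30637594, + strand: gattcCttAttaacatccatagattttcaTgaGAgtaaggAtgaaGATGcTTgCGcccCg

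Signals are the scanner software's background-subtracted intensities, on a linear scale. Differences are log2 dexamethasone minus control after each array's 75th percentile (1402 control, 1477 dexamethasone) was subtracted. Of 30356 probes with a usable spot on both arrays, 24135 (79.5%) were well above background on the control array and 23744 (78.2%) on the dexamethasone array. Among the member probes the numbers were 76 and 77. Spots repeated within an array give the only error. Over 1315 such probes the SD of the difference between spots was 0.041 log2 at the median. It was 0.21 for the 110 of them with a mean log2 signal below 6.

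The labelled tissue was checked against marker genes. The PVN hormone gene Avp was measured at 3464 (control) and 970.3 (dexamethasone), Oxt at 1455 and 587.4, and Crh at 230.2 and 636.3. Sim1, a transcription factor of the nucleus, gave 14.1 and 12.0, and Otp was well above background on the dexamethasone array only (1.92 and 8.26). The summed signal of the 5 PVN markers measured on both arrays was 5784 for control and 2760 for dexamethasone. Markers of neighbouring regions also differed. All 5 measured cortex markers were over 2-fold higher on the dexamethasone array, with a median difference of 2.55 and summed signals of 686 and 9907. Neurod2, a transcription factor of cortical excitatory neurons, was at 202 and 5376. A further cortex marker, Tbr1, was well above background on the dexamethasone array only. All 6 striatum markers lay above 0 (median 0.68, summed signals 4967 and 9235, 2 of 6 over 2-fold). All 8 thalamus markers lay below 0 (median -0.95, summed signals 119227 and 67039, 3 of 8 over 2-fold). Meninges markers were above 0 in 5 of 5 (median 0.75, 5134 and 12650) and blood markers in 2 of 2 (median 1.48, 25412 and 75720). Endothelium, choroid plexus, microglia and oligodendrocyte precursor medians lay between -0.04 and 0.10, and those of astrocytes and oligodendrocytes were 0.25 and 0.23. These marker differences moved with the groups compared here, and their part in the cadherin values was not tested. In bulk tissue, fewer cells of a type and less RNA per cell cannot be told apart.

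Most measured cadherins and protocadherins lay within 2-fold between the arrays. At least 2-fold higher on the dexamethasone array were 3: Cdh9, Pcdh20 and Pcdhb6. The call of Pcdhb6 changed with background handling. Calls rest on size alone: 2-fold or more either way, with no test behind them. Of the 76 gene names, 67 were measured, that is, well above background on both arrays. Among these, 3 were at least 2-fold higher (4.48%), against 3.37% of the 14184 named genes measured on both arrays (478 genes). None was at least 2-fold lower, against 2.38% over the array (338 genes). The share that was higher was near the background, so it is not a result about the family. The median difference was 0.06, with 34 genes above 0 and 33 below, beside a median of 0.01 over all measured genes. Regardless of sign, the median size of a difference was 0.26 among members and 0.20 over all measured genes. A difference of 0.5 log2 or more either way was seen in 11 of 67 members (16.4%) and in 18.4% of all measured genes.

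**Figure D1:**
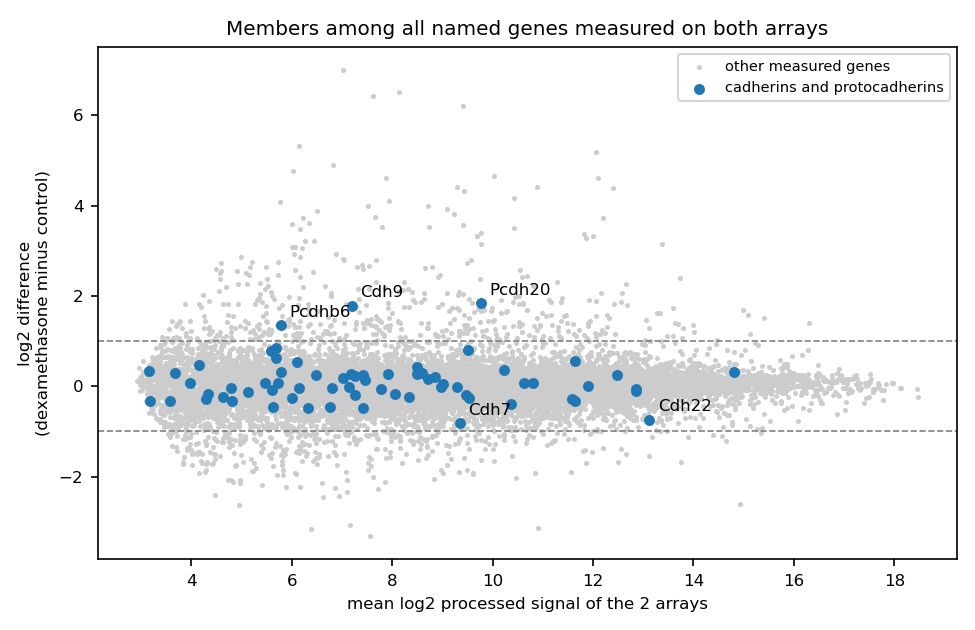
Log2 difference between the dexamethasone and control array (vertical axis) against the mean log2 processed signal of both arrays (horizontal axis), for 14184 named genes measured on both. The 67 cadherins and protocadherins are blue, the other genes grey, and dashed lines mark a 2-fold difference. Members lie over much of the signal range but not at its bright end. Cdh9, Pcdh20 and Pcdhb6 are the only blue points past a dashed line.

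Type I classical cadherins, the main adhesion proteins of epithelia, neurons and muscle, were all measured, and all 5 lay within 2-fold. Their median difference was 0.06 and their range was -0.45 to 0.77. Cdh2, N-cadherin of neural tissue and synapses, was read by 10 spots. Its mean signal was 1513 ± 78.0 among the control spots and 1673 ± 85.4 among the dexamethasone spots (SD, 10 spots on 1 array). After scaling, the difference was 0.07 with a spot SD of 0.057, and 9 of 10 spots were higher. Cdh2 was therefore a bright member with a small difference. Its spots share 1 scaling offset between the arrays, 0.075 log2, which is about as large as the difference. The count of higher spots depends on that offset. Cdh1, E-cadherin of epithelia, gave 36.1 and 64.9, a difference of 0.77. Cdh15, M-cadherin of muscle, gave 123 and 94.7, a difference of -0.45. The Cdh1 value rested on a dim spot, and its difference was 0.25 with normexp background correction, which models signal and background together. Cdh3 (P-cadherin) and Cdh4 (R-cadherin) differed by 0.06 and -0.01.

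Type II classical cadherins, which in brain follow circuits and nuclei, held the widest spread. All 11 were measured, 4 lay above 0 and 7 below, the median was -0.19 and the range was -0.82 to 1.79. Cdh9, known from hippocampal and retinal synapses, gave a signal of 76.8 on the control array and 279 on the dexamethasone array. That is a 3.45-fold higher scaled signal, a difference of 1.79, from 1 spot per array. Its difference kept above 2-fold under all 11 processing alternatives, between 1.26 and 1.82.

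Other type II members lay on the opposite side. Cdh7, found in subsets of neurons, gave 842 for control and 503 for dexamethasone, a difference of -0.82. Cdh22, known as PB-cadherin of pituitary and brain, gave 11227 and 7087, a difference of -0.74. Both were lower by less than 2-fold under every alternative: the range was -0.83 to -0.78 for Cdh7 and -0.80 to -0.71 for Cdh22. Cdh11, read by 2 probes, gave differences of 0.21 (421 and 513) and 0.60 (318 and 508). Cdh5, VE-cadherin of endothelial junctions, gave 128 and 164, a difference of 0.28. The 7 endothelium markers had a median of -0.04. The remaining type II members (Cdh6, Cdh8, Cdh10, Cdh19, Cdh20 and Cdh24) lay between -0.40 and 0.17.

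Adjoining type II genes were alike in some runs and not in others. On chromosome 2 the probe of Cdh9 lies between those of Cdh6, 4.38 Mb away, and Cdh10, 2.76 Mb away. Their differences were -0.40 for Cdh6, 1.79 for Cdh9 and -0.19 for Cdh10. On chromosome 13, Cdh7 lies between Cdh20 and Cdh19. The differences there were -0.17 for Cdh20, -0.82 for Cdh7 and -0.25 for Cdh19, all below 0. On chromosome 19 the probes of Cdh5, Cdh11 and Cdh8 follow each other at 1.60 and 3.63 Mb, and their differences of 0.28, 0.21 and 0.17 were all above 0.

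Of 8 other cadherins and cadherin-related genes, 5 were measured, with a median of -0.06 and a range of -0.33 to 0.44. Cdh23, a tip-link protein of hair cells, gave 303 and 431, a difference of 0.44. Cdhr2, a brush border cadherin, gave 341 and 305, a difference of -0.24. Cdhr4 was read by 10 spots of a bright probe, 3473 ± 122 for control and 2908 ± 123 for dexamethasone (SD, 10 spots on 1 array). The difference was -0.33 with a spot SD of 0.036, and all 10 spots were lower. A second, dim Cdhr4 probe gave 69.7 and 35.9, a difference of -1.03, and -0.51 with normexp. Both Cdhr4 probes were lower, and the gap between them was 0.70 log2, or 0.18 with normexp. Cdhr1, a photoreceptor cadherin, had 10 spots that were all higher by a small amount (difference 0.06, spot SD 0.035). These spots share the same scaling offset as those of Cdh2. Cdh13, the tail-less T-cadherin held by a lipid anchor, gave -0.06 and -0.09 from 2 bright probes. Neither array had a signal well above background for the kidney cadherin Cdh16 or for Cdh26. Cdh17, a liver and intestine cadherin, was well above background on the dexamethasone array only, at 6.09 and 11.0, at least 1.71-fold higher on the processed signal. That bound did not hold with other background handling: the difference was -0.09 with normexp and 0.05 with no background correction.

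**Figure D2:**
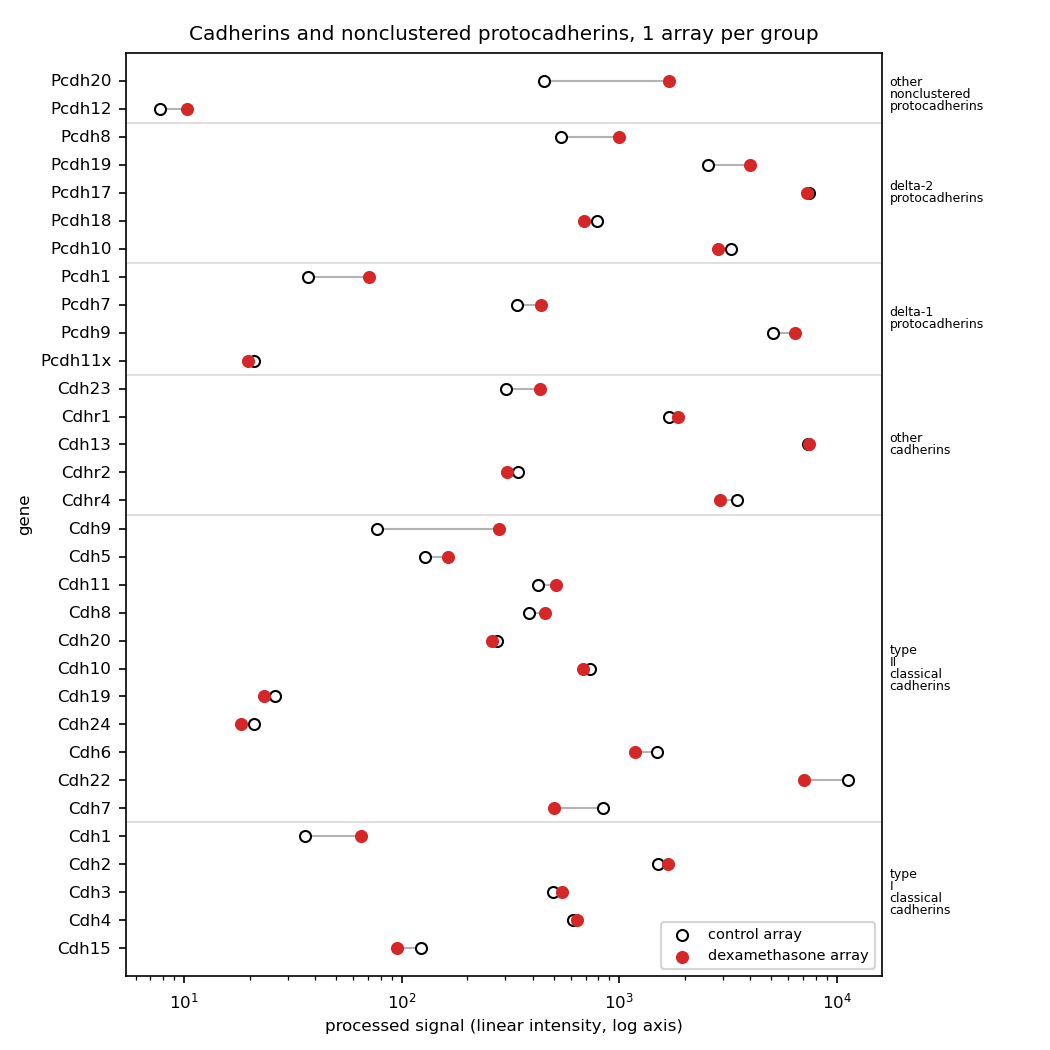
Processed signal (linear intensity on a log axis) of each measured cadherin and nonclustered protocadherin on the control array (open circles) and the dexamethasone array (red circles), 1 array each, grouped by subfamily and ordered by difference. The long grey bars are Cdh9 (76.8 and 279) and Pcdh20 (449 and 1695), while Cdh7 (842 and 503) and Cdh22 (11227 and 7087) have the widest bars in the other direction. Signals of different probes are not comparable with each other.

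Nonclustered protocadherins were all measured, and their median difference was 0.29, with 7 of 11 above 0. Delta-1 members have long tails that can bind protein phosphatase 1. The 4 of them had a median of 0.27 and a range of -0.17 to 0.85. Pcdh1 gave 37.2 for control and 70.5 for dexamethasone, a difference of 0.85 from a dim spot, and 0.35 with normexp background correction. Pcdh9, a bright member, gave 5118 and 6413, a difference of 0.25. Pcdh7 gave 0.29 and 0.04 from 2 probes that lie far apart in the gene. Pcdh11x, an X-linked member, gave 20.9 and 19.6, a difference of -0.17, from its brighter probe. Its other probe was well above background on the dexamethasone array only, at 7.08 and 10.2, and its difference was 0.45 on the processed signal and 0.08 with normexp.

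Delta-2 members recruit the WAVE actin-nucleating complex, and the 5 of them split by direction. Pcdh8 (arcadlin), which neuronal activity induces and which controls N-cadherin uptake, gave 538 and 996, a difference of 0.81. Pcdh19, an X-linked gene of human epilepsy, gave 2558 and 3974, a difference of 0.56. Both were bright enough that background handling moved them little: over the alternatives Pcdh8 ranged from 0.73 to 0.83 and Pcdh19 from 0.51 to 0.58. The other delta-2 genes were lower by small amounts. Pcdh10, an organizer of striatal axons, gave 3281 and 2859, a difference of -0.27. Pcdh18 differed by -0.27, and Pcdh17 by -0.11 and -0.21 from 2 probes.

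Pcdh20 had the largest difference of all 67 measured members. Its signal was 449 on the control array and 1695 on the dexamethasone array, 3.58-fold higher after scaling, a difference of 1.84 from 1 spot per array. Every alternative gave between 1.76 and 1.86. On chromosome 15 its probe lies between those of Pcdh17, 4.28 Mb away at -0.11, and Pcdh9, 5.97 Mb away at 0.25. Pcdh12, an endothelial protocadherin, was barely above background at 7.77 and 10.3. Its difference of 0.34 turned to below 0 in 2 of 10 alternatives, reaching -0.09.

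**Figure D3:**
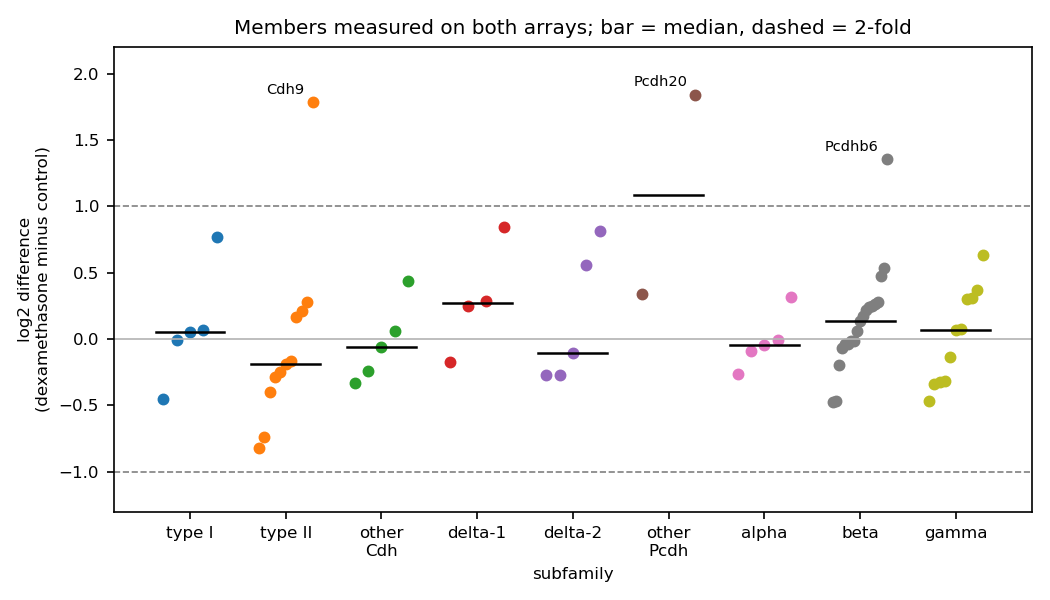
Log2 difference between the dexamethasone and control array for the 67 measured members, by subfamily (Cdh, cadherins; Pcdh, nonclustered protocadherins outside the delta families). Each point is a gene name, black bars are medians and dashed lines mark a 2-fold difference. The points of Pcdhga7 and Pcdhgc5 come from probes of a shared gamma part, and the Pcdhac2 point from a probe that lists 4 transcripts. Type II spans -0.82 to 1.79, and the alpha points stay within -0.26 to 0.32.

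The clustered genes lie on chromosome 18 in the order alpha, beta and gamma. The alpha probes span 263 kb, the beta probes 316 kb and the gamma probes 183 kb. Across 35 measured clustered gene names the median difference was 0.06, with 18 above 0 and 17 below. These include Pcdhga7 and Pcdhgc5, whose values come from probes of a shared gamma part. They also include Pcdhac2, whose probe lists 4 transcripts and is not counted among the single alpha exons. Only Pcdhb6 passed 2-fold in this group.

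Alpha protocadherins, which share their last exons across the cluster, were all measured. Their median was -0.04, with a range of -0.26 to 0.32. The probe named Pcdhac2 lists 4 transcripts and gave 3728 and 3917, a difference below 0.01 in size. The 4 probes of the single alpha exons were much dimmer than that probe. They gave 0.32 for Pcdha2 (48.2 and 63.4), -0.26 for Pcdha13 (68.7 and 60.4), -0.09 for Pcdha3 and -0.04 for Pcdha1. With normexp, Pcdha2 gave 0.20 and Pcdha13 -0.14. None of these 5 probes came near 2-fold, and other alpha exons were not analysed here.

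Beta protocadherins are single-exon genes without a shared tail, so each probe reads its own gene or close copies of it. Of 21 genes, 19 were measured, 11 above 0 and 8 below, with a median of 0.13. Pcdhb6 gave 33.8 on the control and 91.1 on the dexamethasone array, 2.56-fold higher after scaling, a difference of 1.36. It was read by 1 dim spot per array. With normexp background correction the difference was 0.52, and with no background correction it was 0.57, both short of 2-fold. Genes with a mean log2 signal below 6, as here, were 2-fold higher in 4.69% of cases over the array, against 3.05% of brighter genes. The shares 2-fold lower were 4.8% and 1.81%. Of the members, 21 were that dim, 1 of them higher and none lower, and 46 were brighter, 2 of them higher and none lower. The genes on either side did not follow it: Pcdhb5, 24.2 kb away, differed by 0.22 and Pcdhb7, 8.16 kb away, by -0.04. Without Pcdhb6, the 20 other measured beta probes lay between -0.47 and 0.53.

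The ends of that range were Pcdhb22, the last beta probe (56.0 and 85.3, difference 0.53), and Pcdhb3 (196 and 149, difference -0.47). The 6 probes with the shared beta stretch printed above spread over almost the same range. Their differences were 0.48 for Pcdhb2, -0.47 for Pcdhb3, -0.19 for Pcdhb4, -0.47 for Pcdhb8, 0.24 for Pcdhb15 and 0.42 for that Pcdhb20 probe. Probes that share this stretch thus lay on both sides of 0. The Pcdhb2 spot was dim (14.6 and 21.5), and its difference was 0.03 with normexp. A second Pcdhb20 probe gave 0.18, and the 2 Pcdhb9 probes gave 0.28 and 0.28. Pcdhb11 was well above background on the control array only, at 20.2 and 9.28, at least 2.30-fold lower on the dexamethasone array by processed signal. The bound did not hold with normexp background correction, where its difference was -0.36. Pcdhb1 was not well above background on either array.

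Gamma protocadherins also share their last exons, and their loss kills spinal interneurons. Of 15 gene names, 11 were measured, with a median of 0.07 and a range of -0.46 to 0.64. Pcdhga7 and Pcdhgc5 count among the 11 through bright probes of a shared part, described below. Pcdhgb2 gave 40.3 and 66.0, a difference of 0.64, and 0.17 with normexp background correction. The probe named Pcdhg@ gave 56.3 and 43.0, a difference of -0.46, and -0.13 with normexp. The 9 measured probes of single gamma exons were dim, with 4 above 0, 5 below and a median of -0.14.

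A pair of bright probes at the far end of the gamma cluster differed in the same direction. The second Pcdhga7 probe lists 4 transcripts, those of Pcdhga5, Pcdhga7, Pcdhga9 and Pcdhga12, and so reads a part that these transcripts share. It gave 24946 on the control and 32505 on the dexamethasone array, a difference of 0.31. The Pcdhgc5 probe lies 1.655 kb before it and is printed here because of that place.
Pcdhgc5, chr18:30752332-30752391, + strand: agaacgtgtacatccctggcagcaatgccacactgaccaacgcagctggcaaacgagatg
These bases lie in the coding sequence of the tail that gamma transcripts share, so neither probe of the pair gives a value of 1 gamma gene. The probe named Pcdhgc5 gave 1032 and 1405, a difference of 0.37. Both bright gamma probes were higher by less than 2-fold, while the single-exon probes lay on both sides of 0. The Pcdhga7 probe printed above, which reads that gene's own exon, stayed short of well above background on both arrays (4.59 and 3.85). Its near copy Pcdhga8 was well above background on the control array only (12.6 and 6.71, at least 1.84-fold lower on the processed signal), and Pcdhga3 on the dexamethasone array only (6.14 and 10.1, at least 1.56-fold higher on the processed signal). Neither bound held with normexp, which gave differences of -0.21 for Pcdhga8 and 0.03 for Pcdhga3. Pcdhga5 and Pcdhgb8 passed the background mark on neither array.

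**Figure D4:**
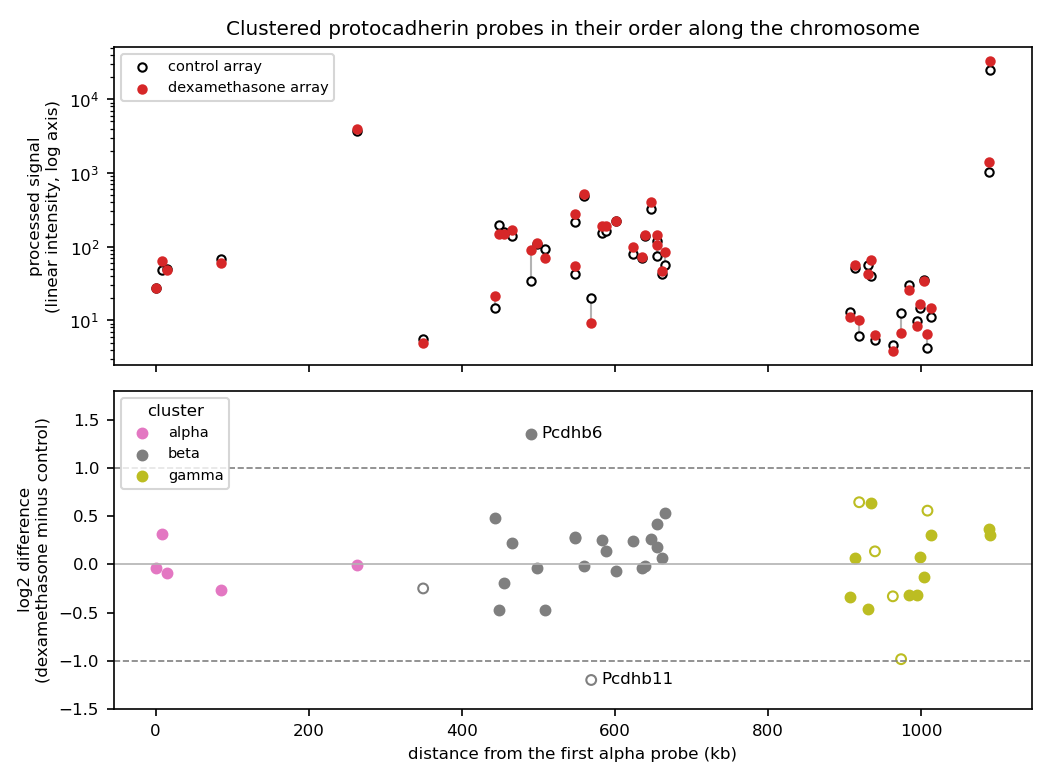
Clustered protocadherin probes by distance from the first alpha probe (kb). The upper panel gives processed signal (linear intensity, log axis) on the control (open) and dexamethasone (red) array, and the lower panel the log2 difference, with open circles for probes not well above background on both arrays and dashed lines at 2-fold. Pcdhb6 (1.36) stands above its neighbours, and the pair of gamma probes at the far right lies at 0.37 and 0.31.

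In all, 9 members had several probes, and in 7 of these more than 1 probe was measured on both arrays. All 7 (Cdh11, Cdh13, Cdhr4, Pcdh7, Pcdh17, Pcdhb9 and Pcdhb20) had 1 sign over their probes on the processed signal. With normexp, Pcdh7 did not (0.24 and -0.02). The gap between probes of a gene ran from 0.01 for Pcdhb9 to 0.70 for Cdhr4, and with normexp from 0.08 for Cdh13 to 0.37 for Cdh11.

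In all, 11 members differed by 0.5 log2 or more, and all 11 kept their sign in every setting. Cdh1, Pcdh1, Pcdhb6, Pcdhb22 and Pcdhgb2 each had a signal under 100 on both arrays. Their lowest values over the settings were 0.25, 0.30, 0.52, 0.24 and 0.17. Cdh9, at 76.8 and 279, also moved with background handling, from 1.79 to 1.26 with normexp. Cdh7, Cdh22, Pcdh8, Pcdh19 and Pcdh20 were brighter and kept to the narrow ranges given above.

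**Figure D5:**
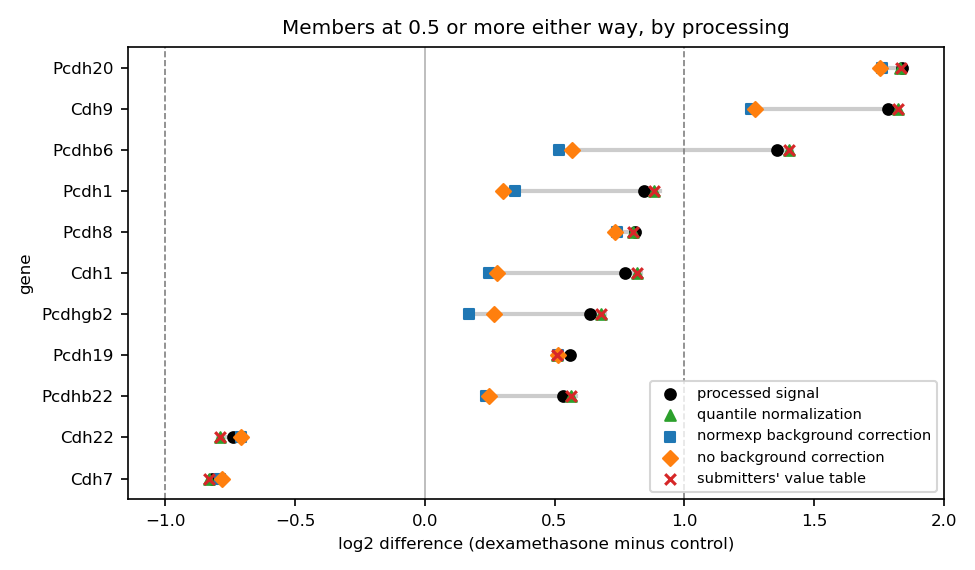
Log2 difference between the dexamethasone and control array for the 11 members at 0.5 or more either way, with the processed signal (black), quantile normalization (green), normexp (blue), no background correction (orange) and the submitters' value table (red cross). Grey bars span all settings and dashed lines mark 2-fold. Pcdhb6 runs from 0.52 to 1.41 and crosses the 2-fold line, while Pcdh20 runs from 1.76 to 1.86.

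Genes that cadherins work with were listed by role, with earlier results of these data known. The array values above (3.37% higher, 2.38% lower) are their background too. Of 22 measured binding and signalling partners, 2 were at least 2-fold higher and none lower, with a median of 0.06. Ptk2b, the kinase Pyk2 that clustered protocadherins restrain, gave 1556 and 4471, a difference of 1.45. Wasf1, the WAVE subunit, gave 7535 and 17214, a difference of 1.12. The other listed genes of the WAVE complex, to which delta-2 protocadherins bind, were higher by less than 2-fold: Abi2 by 0.59, Cyfip2 by 0.44 and Nckap1 by 0.32. Subunits outside the list are not given here. Pkp2, a plakophilin of junctions, gave 616 and 1220, a difference of 0.91. The 7 measured catenins, which hold classical cadherins to actin, lay between -0.32 and -0.03, all within 2-fold. Ctnnb1 (beta-catenin) gave -0.03, Jup (gamma-catenin) -0.19, Ctnna1 -0.07, Ctnna2 -0.30, Ctnna3 -0.32, Ctnnd1 -0.12 and Ctnnd2 -0.27.

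Of 10 measured members of the wider cadherin superfamily, 2 were at least 2-fold higher and none lower. Their median was -0.10 and ranged from -0.17 to 0.13 over the alternatives. Fat4, a giant cadherin of planar polarity, gave 390 and 1228, a difference of 1.58, while its ligand Dchs1 differed by 0.28. Clstn2, a synaptic calsyntenin, gave 30.2 and 75.9, a difference of 1.25. Dsc2, a desmosomal cadherin, gave 11.5 and 21.5, a difference of 0.82. Clstn2 and Dsc2 were dim, as Pcdhb6 was, and their differences with normexp are not given here. The other 6 lay below 0 on the processed signal, among them Celsr3 (437 and 278, difference -0.73), Clstn3 (-0.48) and Ret (-0.43).

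Of 13 measured regulators of the clustered genes, none was at least 2-fold higher and 1 was lower, with a median of 0.13. Dnmt3b, which methylates clustered protocadherin promoters, gave 115 and 43.8, a difference of -1.47. Its signal was low on the dexamethasone array, and its difference with normexp is not given here. Ctcf, which loops those promoters to their enhancers, differed by 0.21, and the cohesin subunits Rad21, Smc1a and Smc3 by 0.19, 0.25 and 0.13. Setdb1, a histone methyltransferase acting on the cluster, differed by -0.38 and Pds5a, a cohesin partner, by 0.31. The clustered genes themselves had a median of 0.06.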

How the data were processed

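Per the labels' protocols, total RNA was amplified and Cy3-labelled with a low-input kit. The deposited scanner files give each spot's intensity (linear). Feature Extraction 10.7.1.1 made them per the file headers, while the submitters' processing notes name 9.5.1.1. The intensity used is the background-subtracted signal in the deposited files. The deposited value table holds intensity values processed further, with a median of 149.91 in both columns. Across probes its differences correlated with the scanner's at 0.996, so its direction matches. A correlation does not show whether the scale matches, and how the table was centred is not stated.

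Control spots and outlier-marked spots (267 control, 249 dexamethasone) were dropped; none was saturated. The mean log2 signal of a probe's spots, minus its array's 75th percentile, was used. A gene took its brightest probe well above background on both arrays. "At least" marks a bound, for a probe well above background on 1 array: its scaled signal there, over either the dimmest well-above-background signal of the second array or its own signal there, whichever is higher. RefSeq names (GRCr8, no coordinates) were matched to 59 of 85 member probes by accession, to 17 by the current symbol and to 6 by an older one, and 3 kept the name in the files. For 6 probes the current name differs, among them 5 alpha probes. Probe sequences and rn4 positions are from the deposited files.

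Named genes are members at 2-fold or with such a bound, the 3 largest differences of each subfamily and list, genes with several probes and genes whose call changes; others were named to complete a group after their values were seen. 1 cortex marker of the design is not reported here and is left out of its list. The members and lists were chosen with earlier results of these data known. In all, 11 alternatives were run, with Python 3.11.15, pandas 2.3.3, R 4.3.3 and limma 3.58.1, and the calculation was tested on simulated data.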

Additional observations from a re-analysis of the deposited data

How the results depend on the processing

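With 1 array per group no array could be left out, and precision is limited by signal over background and by 1 spot for most members. No paired analysis was possible because each group has 1 array. Of 716 member differences under 11 alternatives, 627 moved by less than the error between spots at that signal and 89 by more. Most members had 1 probe with 1 spot, so the settings on spots, outliers and the mean over probes could hardly move them. Scaling by the median of detected probes shifted all members by 1 constant. The 627 is therefore no measure of robustness. Of the 67 members, 55 kept 1 sign in every setting. Only Pcdhb6 changed its 2-fold call, with normexp (0.52) and with no background correction (0.57). With no filter on dim probes 1 member (Pcdhb11) was at least 2-fold lower, against 0. The member median was 0.0086 with normexp and -0.015 with no background correction, against 0.06. Whole-array counts were run under 7 alternatives. Genes at least 2-fold higher numbered 283 with normexp, 279 with no background correction and 870 with no filter on dim probes, against 478. Genes at least 2-fold lower numbered 130, 133 and 732 under the same settings and 207 among bright probes alone, against 338. The settings on dim and bright probes change which genes are counted: bright probes alone leave 11457 genes, against 14184. The cause of the shifts with normexp and with no background correction was not tested. The median of all genes ran from -0.020 to 0.032 over the main setting and the 7 alternatives.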
